A study of Mus musculus with 6 samples.

Results

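The genes described here are 10 components of Akt and mTOR growth signalling, measured as RNA in muscle of ovariectomized mice with and without estradiol (E2). They were chosen by name: the kinase Mtor, its complex partners Rptor and Rictor, the kinases Akt1 and Akt2, the brake Tsc1 and Tsc2, the GTPase Rheb, and the outputs Rps6kb1 and Eif4ebp1. Every probe set whose annotation gave exactly 1 of these symbols was taken, which gave 26 probe sets for 9 of the 10 genes, out of 45101 probe sets and 18193 genes in the series. For Rps6kb1, the S6 kinase, no probe set carried the symbol alone in the annotation used here. The mice were C57BL/6 females that had their ovaries removed at 4 months of age. For 60 days they carried either a placebo pellet (OVX, 3 arrays) or a pellet holding 0.18 mg of E2 (OVX + E2, 3 arrays). Both groups were ovariectomized, so there is no group with ovaries among these arrays, and E2 is compared with placebo.

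In growing and working muscle, insulin and other growth factors activate PI3 kinase, which brings Akt to the membrane. Akt phosphorylates and silences the Tsc1 and Tsc2 complex, and Rheb, freed from that brake, switches on mTOR complex 1, whose scaffold is Rptor. This complex phosphorylates S6 kinase and Eif4ebp1 and so raises protein synthesis, while mTOR complex 2, built on Rictor, phosphorylates Akt itself. Most of these steps run through phosphorylation, and the arrays measured RNA only.

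Each sample was read on 1 Affymetrix mouse genome array, where several short probes for a transcript make up its probe set. Values are the deposited log2 values in arbitrary units, differences are OVX + E2 minus OVX, and tests are those of limma on all 45101 probe sets. The tissue is soleus in the paper and left ventricle in the sample labels. Of 12 measured genes listed here as heart genes 1 (Sln) was among the brightest 5% of probe sets, against 9 of 12 listed for skeletal muscle and 12 of 12 of fast fibres. The mean level of the heart list lay between 7.35 and 7.58 on the arrays, and that of the skeletal muscle list between 11.83 and 12.04. No source used here says whether the 3 arrays of a group came from separate mice, so p-values reflect the spread among these samples alone, and part of that spread may be technical. On each array RNA of the whole tissue was measured, so a change per cell and a change in the makeup of the tissue cannot be told apart. The arrays numbered 3 stood apart from the others: the mean of the 12 fast-fibre genes, each relative to its own mean over the arrays, was 0.14, 0.26 and 0.80 on the OVX arrays against 0.29, -0.19 and -1.29 with E2. Bright probe sets were as a group lower with E2, with a median difference of -0.15 between levels of 9 and 10 and of 0.02 between 6 and 7, and values after cyclic loess, which removes such a trend, are given beside most results.

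None of the 26 probe sets reached the unadjusted p of 0.001 taken as the threshold here, which 0.213% of all probe sets passed, and the smallest adjusted p among them was 0.308. With E2 17 were below OVX and 9 above. At an unadjusted p under 0.05, 3 were lower (11.5%) and 1 was higher (3.85%), against 9.43% lower and 4.35% higher over all probe sets. The groups did not overlap in 5, of which 3 were lower (11.5%) and 2 higher (7.69%), against 11.4% and 9.76% of all probe sets. The median difference over the 26 was -0.05, beside 0.00 over all probe sets. Of the 26, 19 differed by at most 0.1 on the log2 scale in either direction, and 20 had a mean level above 6.92, the median of all probe sets. These shares lie near those of the whole array, and nothing further was read from them.

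**Figure D1:**
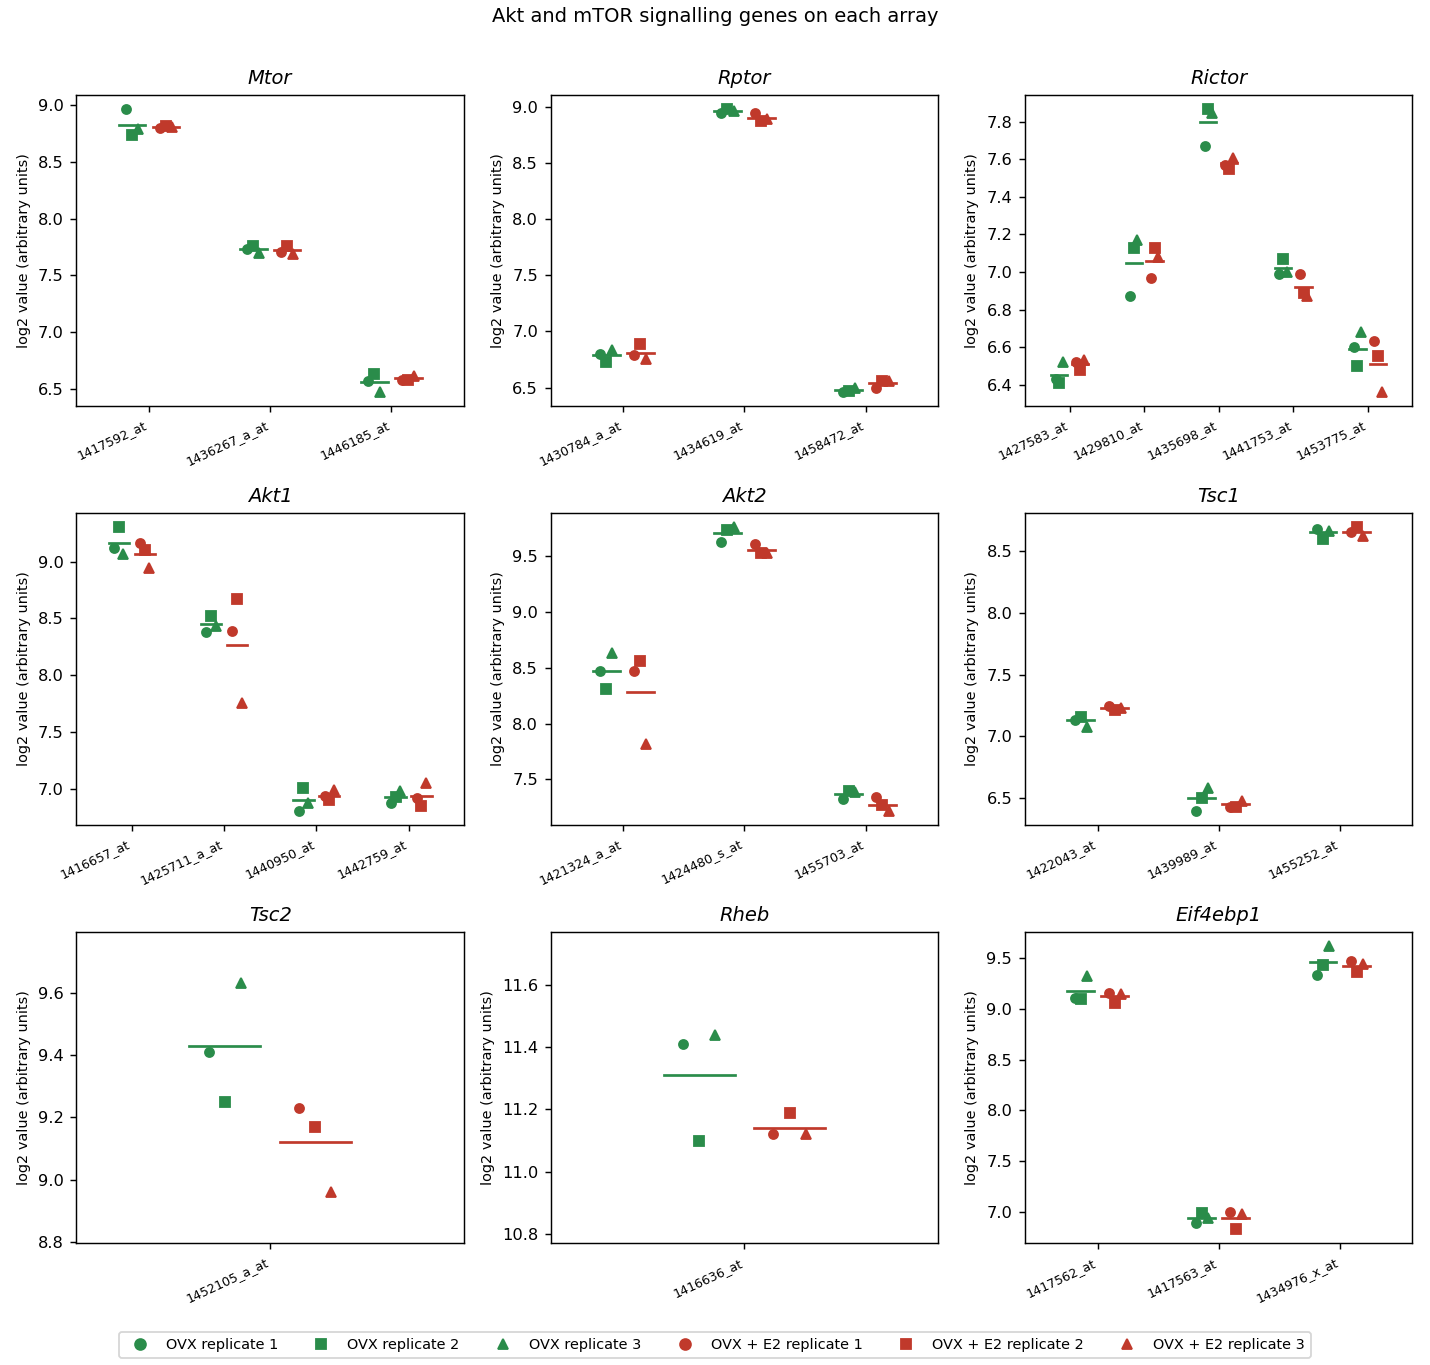
Level of every probe set of the 9 measured genes on each array, on a log2 scale in arbitrary units, with green for OVX, red for OVX + E2, a marker shape for each replicate and a line at each group mean (n = 3). The vertical scale differs between panels. The groups are separate in 1 probe set each of Rictor, Rptor, Akt2, Tsc1 and Tsc2 and overlap in the other 21. After cyclic loess those of Rictor, Rptor, Akt2 and Tsc2 overlap as well, while the groups of Rictor 1441753_at and Tsc1 1455252_at become separate.

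Mtor, the kinase of both complexes, differed between the groups by less than the spread of its arrays. Its brightest probe set, 1417592_at, read 8.97, 8.74 and 8.79 in OVX, and 8.80, 8.82 and 8.81 with E2. The OVX array numbered 1 was the highest and the values of the E2 arrays lay inside the OVX range. The difference was -0.02 (95% interval -0.17 to 0.12, adjusted p = 0.873, limma). Probe sets 1436267_a_at and 1446185_at differed by -0.01 (-0.10 to 0.08) and 0.03 (-0.08 to 0.15). After cyclic loess the difference of 1417592_at was 0.10 (-0.04 to 0.24), with its sign turned.

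Rptor, the scaffold that presents substrates to mTOR complex 1, had 3 probe sets that did not move together. Probe set 1434619_at read 8.94, 8.98 and 8.96 in OVX, and 8.94, 8.87 and 8.89 with E2, a difference of -0.06 (-0.15 to 0.03, adjusted p = 0.487, limma). Probe set 1458472_at, which is below the median level of the arrays, read 6.46, 6.47 and 6.50 in OVX, and 6.50, 6.56 and 6.56 with E2. All 3 E2 arrays lay above the OVX arrays there, the nearest pair being equal at 2 decimals, with a difference of 0.07 (-0.02 to 0.15, adjusted p = 0.454, limma). The third, 1430784_a_at, differed by 0.02 (-0.10 to 0.14). The brightest probe set turned to 0.07 after cyclic loess, so no direction can be given for Rptor.

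Rictor, which defines mTOR complex 2, held the probe set with the smallest p of all 26. Probe set 1435698_at read 7.67, 7.87 and 7.85 in OVX, and 7.57, 7.55 and 7.61 with E2. All 3 E2 arrays lay below all OVX arrays, and the OVX array numbered 1 was the nearest to them. The difference was -0.22 ± 0.059 (SE, n = 3 against 3, 95% interval -0.36 to -0.08), which is 0.859 times the OVX level (limma, unadjusted p = 0.00721, adjusted p = 0.308, exact permutation p = 0.1, the smallest that 20 labelings allow). It stayed negative under each of 14 alternatives, between -0.28 and -0.16, with an unadjusted p under 0.05 in 13 of them. After cyclic loess it was -0.18, with groups that overlapped (7.65 on OVX array 1 and 7.66 on OVX + E2 array 3), and probe sets of like level had a median difference of -0.02. A single array decides whether it passes 0.001: without OVX replicate 1 the difference was -0.28, with an unadjusted p of 0.00064.

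The other 4 Rictor probe sets were dimmer and did not all share that direction. Probe set 1441753_at read 6.99, 7.07 and 7.0 in OVX, and 6.99, 6.89 and 6.87 with E2, a difference of -0.10 (-0.21 to 0.01, adjusted p = 0.394, limma). After cyclic loess it was -0.12, with separate groups and an unadjusted p of 0.0341 (limma). Probe set 1453775_at differed by -0.08 (-0.27 to 0.10), and its lowest value, 6.36, was on OVX + E2 array 3. Without both arrays numbered 3 it was 0.04. Probe sets 1427583_at and 1429810_at differed by 0.06 (-0.05 to 0.16) and 0.01 (-0.20 to 0.21). Of the 5 probe sets 3 were therefore lower and 2 slightly higher with E2, and which transcripts each one reads was not tested.

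Akt1 and Akt2, the kinases that carry the growth factor signal to the TSC complex, each had a probe set with 1 array far from the rest. Akt1 probe set 1425711_a_at read 8.38, 8.52 and 8.43 in OVX, and 8.39, 8.67 and 7.76 with E2. Akt2 probe set 1421324_a_at read 8.47, 8.31 and 8.63 in OVX, and 8.47, 8.56 and 7.82 with E2. In both the low value was that of OVX + E2 array 3, the array with the lowest fast-fibre genes, and the other E2 arrays lay within or above the OVX range. The differences were -0.17 (-0.66 to 0.31, adjusted p = 0.717, limma) and -0.19 (-0.64 to 0.26, adjusted p = 0.662, limma). Without both arrays numbered 3 they were 0.08 and 0.12, on the other side of 0. The part of fibre composition in these values was not tested.

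**Figure D2:**
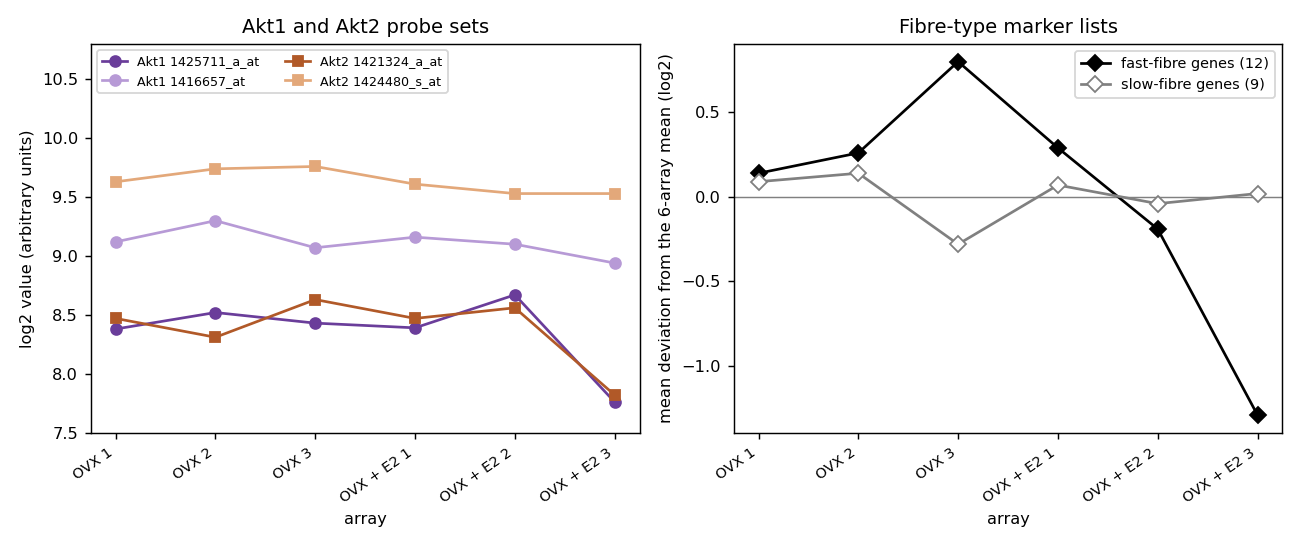
Left, level of 2 probe sets of Akt1 and 2 of Akt2 on each of the 6 arrays (log2, arbitrary units). Right, mean deviation of 12 fast-fibre and 9 slow-fibre genes from their own 6-array means (log2). On OVX + E2 array 3 the probe sets 1425711_a_at and 1421324_a_at stood at 7.76 and 7.82 and the fast-fibre mean at -1.29, while 1416657_at and 1424480_s_at were at 8.94 and 9.53. The lines join arrays for reading only.

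The brightest probe sets of both kinases did not repeat this pattern. Akt1 probe set 1416657_at read 9.12, 9.30 and 9.07 in OVX, and 9.16, 9.10 and 8.94 with E2, with overlapping groups and a difference of -0.10 (-0.29 to 0.09, adjusted p = 0.592, limma) that turned to 0.04 after cyclic loess. Akt2 probe set 1424480_s_at read 9.63, 9.74 and 9.76 in OVX, and 9.61, 9.53 and 9.53 with E2. Here all E2 arrays lay below all OVX arrays, with 9.61 and 9.63 as the nearest values, and the difference was -0.16 ± 0.048 (SE, 95% interval -0.27 to -0.04, limma unadjusted p = 0.0135, adjusted p = 0.311, exact permutation p = 0.1). Probe sets of that level had a median difference of -0.15, and after cyclic loess Akt2 differed by -0.01 (-0.13 to 0.11). After quantile normalization it was 0.02, with its sign turned. The suffix _s_at marks probes that may be shared with transcripts of other genes.

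The dimmer Akt probe sets added no separate groups. Akt2 1455703_at differed by -0.10 (-0.21 to 0.01, adjusted p = 0.396, limma) and kept -0.09 after cyclic loess. Akt1 1440950_at and 1442759_at differed by 0.04 (-0.09 to 0.18) and 0.01 (-0.13 to 0.15).

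Tsc1 and Tsc2, the proteins of the complex that holds Rheb inactive, each had a probe set with separate groups, on opposite sides of 0. Tsc2 probe set 1452105_a_at read 9.41, 9.25 and 9.63 in OVX, and 9.23, 9.17 and 8.96 with E2. The groups did not overlap, with 9.23 and 9.25 as the nearest values, and both extremes were the arrays numbered 3. The difference was -0.31 ± 0.11 (SE, 95% interval -0.56 to -0.06, 0.807 times OVX, limma unadjusted p = 0.0232, adjusted p = 0.326, exact permutation p = 0.1), the largest of the 26 probe sets. It was -0.17 after cyclic loess (-0.38 to 0.04) and -0.13 without both arrays numbered 3, and with both changes together -0.02. Without OVX array 3 alone it was -0.21 and without OVX + E2 array 3 alone -0.23, each with an unadjusted p above 0.05. This is the only probe set of Tsc2 used here, so the gene has no other reading.

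Tsc1 probe set 1422043_at read 7.13, 7.16 and 7.08 in OVX, and 7.25, 7.21 and 7.23 with E2. All 3 E2 arrays lay above the OVX arrays, with a difference of 0.10 ± 0.038 (SE, 95% interval 0.01 to 0.19, 1.07 times OVX, limma unadjusted p = 0.0289, adjusted p = 0.336, exact permutation p = 0.1). It was 0.10 after cyclic loess as well and between 0.08 and 0.12 under all 14 alternatives, with an unadjusted p under 0.05 in 6 of them. Tsc1 probe set 1455252_at, brighter, differed by 0.01 (-0.09 to 0.10) as deposited and by 0.12 after cyclic loess (0.04 to 0.21), where probe sets of like level had a deposited median of -0.12. The dimmest, 1439989_at, differed by -0.05 (-0.17 to 0.07). After cyclic loess 2 of the 3 Tsc1 probe sets were thus higher with E2 at an unadjusted p under 0.05, and the dimmest was not.

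Rheb, the GTPase that switches on mTOR complex 1, had a single probe set and 1 divergent OVX array. Probe set 1416636_at read 11.41, 11.10 and 11.44 in OVX, and 11.12, 11.19 and 11.12 with E2. Of the OVX arrays 2 lay above all E2 arrays, and OVX array 2 was the lowest of all 6. The difference was -0.17 (-0.38 to 0.04, adjusted p = 0.422, limma), beside a median of -0.14 at that level, and it was -0.03 after cyclic loess (-0.22 to 0.17). Without OVX replicate 2 it was -0.28 with an unadjusted p of 0.000731, below the threshold of 0.001, so a single array decides that call.

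Eif4ebp1, the translation repressor that mTOR complex 1 inactivates, differed between the groups by less than its error. Probe set 1417562_at read 9.11, 9.10 and 9.32 in OVX, and 9.16, 9.06 and 9.15 with E2, a difference of -0.05 (-0.21 to 0.11, adjusted p = 0.743, limma). Probe sets 1434976_x_at and 1417563_at differed by -0.04 (-0.22 to 0.14) and 0.00 (-0.14 to 0.13). Probe sets 1417562_at and 1434976_x_at turned to 0.09 and 0.10 after cyclic loess, without passing 0.05. The suffix _x_at marks probes that may bind other transcripts as well.

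**Figure D3:**
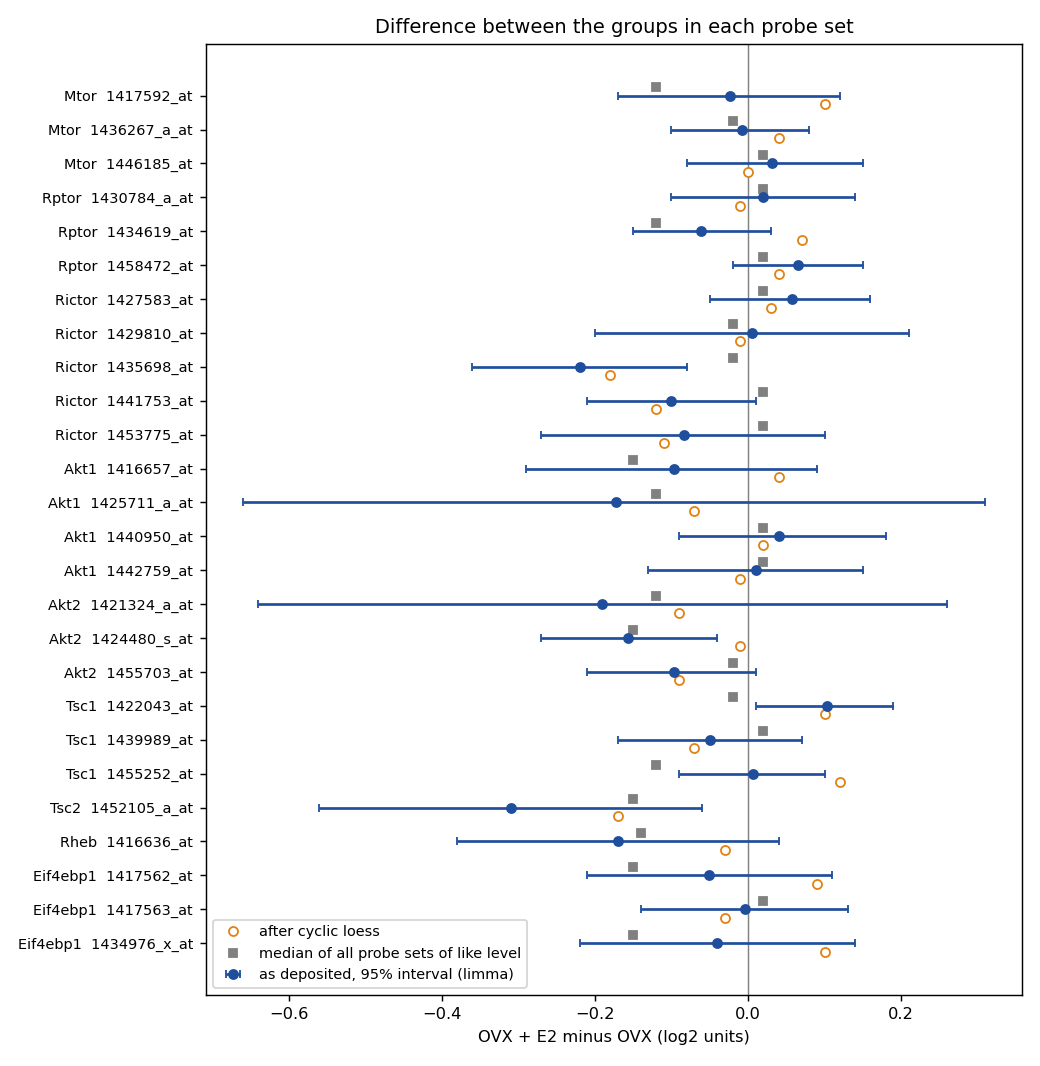
Difference between OVX + E2 and OVX (log2 units) for each of the 26 probe sets, with its 95% interval from limma (blue, n = 3 against 3), the difference after cyclic loess (orange rings) and the median of all probe sets in the same 1-unit range of level (grey squares). The intervals of 22 probe sets cross 0. Those of Rictor 1435698_at, Akt2 1424480_s_at and Tsc2 lie below it and that of Tsc1 1422043_at above it, and the Akt2 value moves to -0.01 after cyclic loess.

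The signs of the differences went with the signal level of the probe sets, as they did over the whole array. Of the 26 probe sets 11 had a mean of 8 or above, a split chosen with the trend known. Of these 10 were below 0, with a median of -0.10, beside 7809 of all 8643 probe sets at 8 or above, with a median of -0.13. At 0.05, 2 of the 11 passed as lower (18.2%), against 32.8% of all probe sets at 8 or above. The 15 dimmer ones had a median of 0.01, with 1 lower and 1 higher, against 3.89% and 5.26% of all dimmer probe sets. After cyclic loess 5 of the 11 bright probe sets were below 0 and 6 above, beside 4696 and 3947 of all probe sets at that level. The counts at 0.05 over all 26 were then 2 lower, both of Rictor, and 2 higher, both of Tsc1, against 4.02% and 3.57% of all probe sets.

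Across the 6 arrays the profiles of the genes varied. With 1 probe set per gene, the one with the largest interquartile range, 17 of the 36 pairs had a Pearson r above 0 and the median r was -0.08. The highest was Akt1 with Akt2 (r = 0.88), both with their low value on OVX + E2 array 3, and the lowest was Tsc1 with Tsc2 (r = -0.87). The mean profile of the genes was highest on OVX array 3 (0.10) and lowest on OVX + E2 array 3 (-0.17). The genes with profiles most like this mean were Rtf1 (r = 0.996), Parl, Nudcd3, 1700071K01Rik and Smco1 (each r = 0.994), the nearest of 10383 candidates, of which 499 had r above 0.9. These values describe 6 arrays that share the position of the arrays numbered 3, and likeness at this n is common.

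The windows upstream of these genes were searched for the estrogen response element, since estrogen receptors bind this palindrome, and for common promoter motifs. Windows run from 250 bases before a RefSeq start to 50 after it (assembly GRCm38.p6), 32851 in all, of which 13 belong to 9 of the 10 genes, Rps6kb1 included and Eif4ebp1 not. Both strands were read. The full palindrome GGTCANNNTGACC was in 0 of the 13 windows, beside 0.07% of all windows. 1 arm of it, GGTCA, was in windows of Mtor, Akt1 and Rheb, beside 40.5% of all windows. The GC box GGGCGG was in windows of Mtor, Rictor, Akt1, Akt2 and Rheb (35.7% of all), TATAAA in none (13.6%), and the E-box CACGTG in that of Rheb (7.15%), where it overlaps such an arm. Shown are the 250 bases before the start of Rictor, which had the smallest p, and of Mtor and Rheb, which hold an arm, 5′ to 3′ on the gene's strand with arms, GC boxes and the E-box on either strand in capitals. They lie at chr15:6708131-6708380 (plus strand), chr4:148448332-148448581 (plus) and chr5:24842362-24842611 (minus).
Rictor: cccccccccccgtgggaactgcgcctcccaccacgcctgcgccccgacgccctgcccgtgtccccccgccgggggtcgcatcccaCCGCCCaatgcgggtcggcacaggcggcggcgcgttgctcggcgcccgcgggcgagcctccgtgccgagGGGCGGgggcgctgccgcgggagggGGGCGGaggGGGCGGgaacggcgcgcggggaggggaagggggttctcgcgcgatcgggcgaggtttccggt
Mtor: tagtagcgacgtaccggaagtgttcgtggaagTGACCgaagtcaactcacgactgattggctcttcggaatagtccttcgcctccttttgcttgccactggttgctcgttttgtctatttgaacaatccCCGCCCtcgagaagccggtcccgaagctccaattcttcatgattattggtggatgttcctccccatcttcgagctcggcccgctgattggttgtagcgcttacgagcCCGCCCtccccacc
Rheb: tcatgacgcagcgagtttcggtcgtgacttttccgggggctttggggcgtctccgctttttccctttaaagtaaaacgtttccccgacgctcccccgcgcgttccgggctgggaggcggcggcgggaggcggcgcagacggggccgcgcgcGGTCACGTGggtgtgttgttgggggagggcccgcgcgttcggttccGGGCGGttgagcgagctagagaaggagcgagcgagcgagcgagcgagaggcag
Rictor holds 4 GC boxes, at 165, 96, 71 and 62 bases before the start, and no arm. Mtor holds an arm 218 bases before the start and Rheb 1 at 99, and neither gene's probe sets passed 0.001 with all arrays in the fit. A match of letters is a description and not a binding site, and no match says only that these letters are not in this window.

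The rest of the pathway was read from 88 other genes in 5 lists, of which 81 had a probe set, with the probe set of largest interquartile range for each gene. As deposited, 67 of the 81 were below OVX with E2, with a median of -0.13 beside -0.01 over all genes, and 26 were lower and 2 higher at an unadjusted p under 0.05, against 13.0% and 6.01% of all 18193 genes. None reached 0.001, which 0.412% of all genes did. The lists hold many genes of high signal: of the 47 genes at a mean of 8 or above 20 were lower (42.6%), beside 37.6% of all genes at that level, and of the 34 dimmer ones 6 were lower and 1 higher, beside 5.38% and 7.7%. After cyclic loess 10 were lower and 2 higher, with a median of -0.06, against 5.06% and 4.6% of all genes. Without both arrays numbered 3 the counts were 16 and 2, against 11.1% and 2.87% of all genes.

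**Figure D4:**
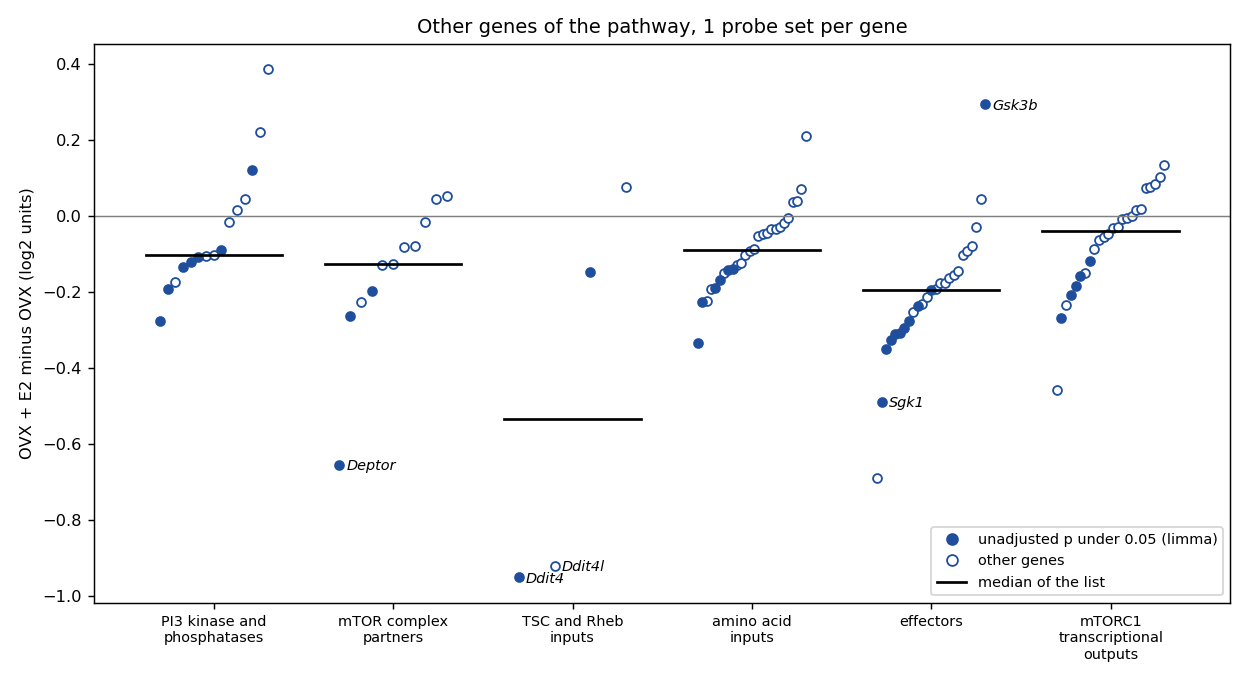
Difference between OVX + E2 and OVX (log2 units) of each measured gene in the 5 lists of other pathway genes (81 genes) and in the list of mTORC1 transcriptional outputs (24 genes), 1 probe set per gene, ordered by size within a list. Filled points have an unadjusted limma p under 0.05 and lines mark list medians, which lie between -0.53 and -0.04. The position along the horizontal axis within a list has no other meaning.

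Among 15 genes of PI3 kinase and of the phosphatases that oppose Akt, 6 were lower and 1 higher as deposited, beside the 13.0% and 6.01% of all genes. After cyclic loess 1 was lower (Pik3cb, a catalytic subunit of PI3 kinase, at -0.13) and 1 higher, beside 5.06% and 4.6% of all genes. Protein phosphatase 2A removes phosphate from Akt. Its scaffold Ppp2r1a differed by -0.28 ± 0.063 (SE, adjusted p = 0.308, limma) in probe set 1438991_x_at, and its 4 other probe sets lay between -0.24 and -0.10. Of the catalytic subunits, Ppp2cb 1421823_a_at and Ppp2ca 1456390_at were at -0.19 and -0.12, but Ppp2cb 1421822_at was at 0.06 and the brightest Ppp2ca probe set, 1417367_at, at 0.03, so the probe sets of neither gene shared a direction. Ppp2r1a 1438991_x_at read 10.79, 10.90 and 10.86 in OVX, and 10.55, 10.69 and 10.48 with E2. After cyclic loess it differed by -0.13, Ppp2cb 1421823_a_at by -0.06 and Ppp2ca 1456390_at by 0.01, each with an unadjusted p above 0.05. Pik3r2, a regulatory subunit of PI3 kinase, was at -0.13 (adjusted p = 0.32, limma), and at -0.09 with overlapping groups and an unadjusted p of 0.0747 after cyclic loess. Phlpp2, a phosphatase of the Akt hydrophobic motif, was the higher one, with 6.44, 6.47 and 6.44 in OVX, and 6.55, 6.60 and 6.55 with E2, a difference of 0.12 (adjusted p = 0.31, limma) that was 0.09 after cyclic loess. That probe set, 1444593_at, was dim with a mean of 6.51, and 13.6% of all probe sets between levels of 6 and 7 were separate and higher. The other Phlpp2 probe set, 1435601_at, was at 0.02 with overlapping groups.

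Among 11 partners of the mTOR complexes 3 were lower and none higher as deposited, beside 13.0% and 6.01% of all genes. After cyclic loess 2 were lower, Deptor and Telo2 (-0.11), beside 5.06% of all genes. The Telo2 value is that of 1423887_a_at, and its probe sets disagreed: the brightest, 1423888_at, was then at 0.07 and 1456579_x_at at -0.08. Mapkap1, a subunit of mTOR complex 2 beside Rictor, read 9.20, 9.07 and 9.18 in OVX, and 8.96, 8.94 and 8.95 with E2. The groups were separate and the difference was -0.20 ± 0.045 (SE, adjusted p = 0.308, limma). It was -0.06 after cyclic loess, with an unadjusted p of 0.152. The other Mapkap1 probe set, 1417284_at, was at -0.07 with overlapping groups. Deptor, an inhibitor that binds mTOR in both complexes, had the largest difference of the list: probe set 1451348_at read 7.83, 7.78 and 8.48 in OVX, and 7.73, 7.38 and 7.01 with E2. The extremes were the arrays numbered 3, the difference was -0.65 ± 0.23 (SE, 0.635 times OVX, adjusted p = 0.33, limma), and without those arrays, whose fast-fibre means were 0.80 and -1.29, it was -0.25. Without OVX array 3 alone it was -0.43. The 5 other Deptor probe sets lay between -0.37 and 0.02, each with an unadjusted p above 0.05, the brightest (1453571_at) at -0.34. Fkbp1a, the rapamycin-binding protein, was at -0.26 (adjusted p = 0.347, limma) with overlapping groups, at -0.17 without OVX + E2 array 3 and at -0.12 after cyclic loess. Its 4 other probe sets lay between -0.20 and -0.11 as deposited, each with separate groups and an unadjusted p between 0.00173 and 0.0172 (limma). After cyclic loess they lay between -0.16 and 0.04, and only 1438795_x_at, the dimmest at a mean of 5.89, had an unadjusted p under 0.05.

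Of the 4 genes that act on TSC and Rheb, 2 were lower, beside 13.0% of all genes. These were Ddit4 and Tbc1d7, both chosen for mention after their values were seen. Ddit4, a stress-induced inhibitor of mTOR complex 1 that works through TSC and responds to glucocorticoids, read 8.54, 9.5 and 9.82 in OVX, and 8.70, 7.93 and 8.37 with E2. OVX array 1 lay below OVX + E2 array 1, so the groups overlapped. The difference was -0.95 ± 0.33 (SE, 0.517 times OVX, adjusted p = 0.328, limma), -0.83 after cyclic loess and -0.70 without both arrays numbered 3. Its paralogue Ddit4l had 3 probe sets, each highest on OVX array 3 and lowest on OVX + E2 array 3. Probe set 1444139_at differed by -0.92 (-1.85 to 0.01, adjusted p = 0.365, limma) and by -0.22 without those arrays, and the part of fibre composition in both genes was not tested. Tbc1d7, the third subunit of the TSC complex, was at -0.15 (adjusted p = 0.346, limma), at -0.06 after cyclic loess, and at 0.00 in its other probe set.

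**Figure D5:**
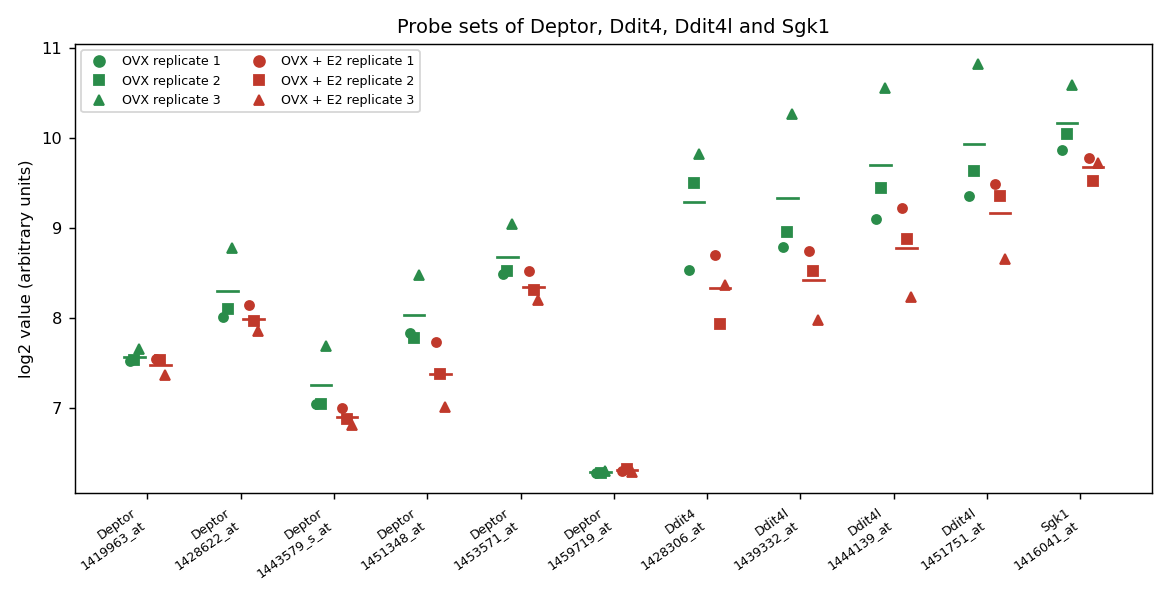
Level of the probe sets of Deptor, Ddit4, Ddit4l and Sgk1 on each array (log2, arbitrary units), green for OVX, red for OVX + E2, a marker shape per replicate and lines at group means (n = 3). OVX array 3 (green triangle) is the highest value of Ddit4 (9.82), Ddit4l 1444139_at (10.56) and Sgk1 (10.59). The distance between group means shrinks for Deptor 1451348_at and Ddit4l when the triangles are left out.

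Among 26 genes of the amino acid input, which brings mTOR complex 1 to the lysosome, 6 were lower and none higher as deposited, 2 were lower after cyclic loess and 3 without both arrays numbered 3. Of all genes 13.0%, 5.06% and 11.1% were lower in these 3 settings, and 6.01% were higher as deposited. With 1 probe set per gene, the smallest p of the pathway genes was that of Castor2, an arginine-sensor family member, with 9.22, 9.15 and 9.23 in OVX, and 8.98, 8.91 and 8.71 with E2. The groups were separate and the difference was -0.34 ± 0.071 (SE, 95% interval -0.50 to -0.17, limma unadjusted p = 0.0021, adjusted p = 0.308, exact permutation p = 0.1). It was -0.20 after cyclic loess and -0.24 without both arrays numbered 3. The 3 other Castor2 probe sets were at -0.23, -0.08 and 0.05. Lamtor4 and Lamtor5, parts of the lysosomal anchor of the Rag GTPases, were at -0.23 and -0.14, and Wdr24 and Mios, parts of the GATOR2 complex, at -0.19 and -0.17. After cyclic loess these were -0.11, 0.00, -0.14 and -0.09, and of them Wdr24 alone had an unadjusted p under 0.05. The other probe sets of Lamtor5 (1415759_a_at) and Mios (1424803_at) were at -0.08 and -0.09 as deposited, with overlapping groups.

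Among 25 effectors of Akt and mTOR 9 were lower and 1 higher as deposited, beside 13.0% and 6.01% of all genes. After cyclic loess 4 were lower and 1 higher, beside 5.06% and 4.6% of all genes. The list is bright, with a median level of 8.87, and 37.6% of all genes at 8 or above were lower as deposited. Tfeb, the lysosomal transcription factor that mTOR complex 1 keeps out of the nucleus, read 9.19, 9.28 and 9.47 in OVX, and 9.05, 9.06 and 8.86 with E2, a difference of -0.33 (adjusted p = 0.308, limma). Eef2, the elongation factor of translation, read 12.38, 12.29 and 12.33 in OVX, and 12.18, 12.06 and 11.87 with E2, a difference of -0.30 (adjusted p = 0.308, limma). Both had separate groups, and after cyclic loess they were at -0.19 and -0.16, both still at an unadjusted p under 0.05. Rps6kb2, the S6 kinase that stands here beside the unmeasured Rps6kb1, was at -0.20 (adjusted p = 0.31, limma) and -0.15 after cyclic loess. Larp1, which represses ribosomal protein messages, and Maf1, a repressor of RNA polymerase III, were at -0.24 and -0.28 as deposited. After cyclic loess they were at -0.09 and -0.13, with unadjusted p of 0.174 and 0.116.

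A further 3 effectors were chosen for mention after their values were seen. Sgk1, a kinase activated by mTOR complex 2 and induced by glucocorticoids, read 9.87, 10.05 and 10.59 in OVX, and 9.78, 9.53 and 9.73 with E2, a difference of -0.49 ± 0.17 (SE, adjusted p = 0.33, limma). It was -0.34 after cyclic loess, with an unadjusted p of 0.0841, -0.30 without both arrays numbered 3 and -0.28 without OVX array 3 alone. Eif4ebp2, the sister of Eif4ebp1, was at -0.35 (adjusted p = 0.314, limma) in probe set 1437733_at and at -0.25 after cyclic loess. Its 4 other probe sets lay between -0.10 and -0.06, each with an unadjusted p above 0.05, and the brightest, 1417084_at, was at 0.18 without both arrays numbered 3. Gsk3b, the kinase that Akt inhibits, was the effector counted as higher, and its probe sets disagreed: 1437001_at was at 0.29 (adjusted p = 0.351, limma) and 1454958_at at -0.20 (adjusted p = 0.308, limma). After cyclic loess they were at 0.43, with an unadjusted p of 0.00802, and at -0.05, with 0.372. Without OVX + E2 array 2 the first was at 0.19. The 4 other probe sets lay between -0.13 and 0.00 as deposited.

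Of the transcriptional outputs of mTOR complex 1, such as sterol, serine and amino acid transport genes, 24 of 27 were measured. With E2 17 were below OVX and 7 above, with a median of -0.04, and 5 were lower and none higher at p under 0.05, against 13.0% and 6.01% of all genes. Shmt2 and Psph of serine and folate metabolism were at -0.16 and -0.19 (Psph -0.12 without OVX + E2 array 3), and Slc3a2, a subunit of the leucine transporter, at -0.21. Srebf2, the factor that drives sterol synthesis, was at -0.12, and Fdps of that pathway, named after its value was seen, at -0.27 with overlapping groups. Shmt2 had 4 probe sets, all below 0, and the one named, 1455985_x_at, had an unadjusted p of 0.0107, and of 0.00497 after cyclic loess. After cyclic loess 2 of the 24 were lower, Shmt2 and Psph (-0.20), and 1 was higher, the hexokinase Hk2 (0.11), against 5.06% and 4.6% of all genes. Slc3a2, Srebf2 and Fdps were then at -0.10, -0.08 and -0.19, each with an unadjusted p above 0.05. Without both arrays numbered 3 the counts of outputs lower and higher were 1 and 0, against 11.1% and 2.87% of all genes.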

How the data were processed

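RNA of 3 OVX and 3 OVX + E2 samples was read on 1 array each. The authors used R 2.14.2 to subtract background, normalize the arrays by variance stabilization and combine probes by median polish. The deposited log2 values have arbitrary units and compress differences of dim probe sets. Samples were grouped by treatment from the labels. Arrays have no read depth, and their number limits the precision. Differences were tested from the deposited values of all 45101 probe sets, 64 control probe sets included, two-sided and without covariates, with limma 3.58.1 (lmFit, eBayes; R 4.3.3), at an unadjusted p of 0.001, the study's cutoff, with Benjamini-Hochberg adjustment over all probe sets. An exact permutation test over 20 labelings of the arrays was run for probe sets of the 10 genes and of the pathway, output and marker lists only. Fits were tested on simulated data. The 10 genes, the pathway lists and the marker lists were chosen with earlier results of these data known. All probe sets of the 10 genes were named. Of each other list up to 5 genes with the smallest p under 0.05 and without overlap between the groups were named, from 1 probe set per gene, the one with the largest interquartile range. Fkbp1a, Ddit4, Ddit4l, Tbc1d7, Sgk1, Eif4ebp2, Gsk3b, Fdps, Pik3cb, Telo2 and Hk2 fall outside this rule and were named after their values were seen. Likeness was the Pearson r with the mean profile of the genes, over single-symbol probe sets above the median level. Alternatives were a filter on dim probe sets, cyclic loess (3 iterations), median centring or quantile normalization of the deposited values, the replicate block, a variance trend in eBayes, the probe set of highest mean per gene, and removal of each array or of both arrays numbered 3. Sequences are those of RefSeq, GRCm38.p6. Scans and detection calls were not used here.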

Additional observations from a re-analysis of the deposited data

How the results depend on the processing

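No probe set of the 10 genes passed 0.001 under the normalizations, the filter, the block or the variance trend, and without 1 array 0 to 1 did (Rictor 1435698_at without OVX replicate 1, Rheb without OVX replicate 2). Rictor 1435698_at and 1441753_at, Akt2 1455703_at, Tsc1 1439989_at and Tsc2 stayed lower under every alternative that kept them. Tsc1 1422043_at, Rptor 1458472_at and Rictor 1427583_at stayed higher, so probe sets of Rictor and of Tsc1 held opposite signs. The number of arrays limits every value, and the cause of the shifts below was not tested. Groups are separate more easily with fewer arrays, so separate pairs in fits that leave arrays out cannot be set against those of all 6. Shares over all probe sets are not given beside the counts below.

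Cyclic loess gave 2 higher at p under 0.05, beside 3.57% of all probe sets, 1 separate group pair lower, and a median difference of -0.009. It gave 10 other pathway genes lower, and 2 outputs lower and 1 higher, beside 5.06% lower and 4.6% higher of all genes. It turned the sign of Mtor 1417592_at (0.1) and 1436267_a_at (0.039), Rptor 1430784_a_at (-0.008) and 1434619_at (0.067), Rictor 1429810_at (-0.011), Akt1 1416657_at (0.038) and 1442759_at (-0.014), Eif4ebp1 1417562_at (0.085) and 1434976_x_at (0.102), and Ppp2ca (0.01). Quantile normalization gave 2 higher, 1 separate pair lower and a median of 0.002, with 10 pathway genes lower and 4 higher, and 2 outputs lower and 1 higher. It turned Mtor 1417592_at (0.124) and 1436267_a_at (0.053), Rptor 1430784_a_at (-0.003) and 1434619_at (0.091), Rictor 1429810_at (-0.00037), Akt1 1416657_at (0.06) and 1442759_at (-0.003), Akt2 1424480_s_at (0.018), Eif4ebp1 1417562_at (0.1) and 1434976_x_at (0.127), Ppp2ca (0.033) and Lamtor5 (0.009). Median centring gave 5 lower and 0 higher, and 6 separate pairs lower and 1 higher, and turned Rictor 1429810_at (-0.011), Akt1 1442759_at (-0.007) and Tsc1 1455252_at (-0.01).

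Without both arrays numbered 3 there was 1 lower and 0 higher, beside 3402 and 948 of all 45101 probe sets, with a median of -0.012. Lower were 16 pathway genes and 1 output, beside 11.1% of all genes. The sign turned in Mtor 1446185_at (-0.022), Rictor 1453775_at (0.036), Akt1 1425711_a_at (0.077) and 1442759_at (-0.019), Akt2 1421324_a_at (0.123), and Eif4ebp1 1417562_at (0.009) and 1434976_x_at (0.029). Cyclic loess of these 4 arrays, chosen after seeing the data, gave 0 lower and 2 higher, 7 separate pairs higher, a median of 0.031, 2 pathway genes lower and 4 higher, and 2 outputs lower. It turned Mtor 1417592_at (0.052), 1436267_a_at (0.034) and 1446185_at (-0.046), Rptor 1434619_at (0.047), Rictor 1453775_at (0.013), Akt1 1416657_at (0.029), 1425711_a_at (0.163), 1440950_at (-0.013) and 1442759_at (-0.039), Akt2 1421324_a_at (0.206), Rheb (0.028), Eif4ebp1 1417562_at (0.117) and 1434976_x_at (0.144), and Fkbp1a (0.018).

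The filter on dim probe sets left 1 separate pair higher, 1 pathway gene higher and 3 outputs lower, the variance trend gave 1 output higher, and the probe set of highest mean gave 0 pathway genes higher. Arrays of the same number did not deviate together (r of -0.125, -0.200 and -0.342), so the numbers were not taken as pairs. With the replicate block 2 probe sets were lower and 0 higher, 20 pathway genes were lower and 1 (Gsk3b, with an unadjusted p of 0.000825) passed 0.001, and 3 outputs were lower.

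Leaving out each array in turn gave 2 to 5 probe sets lower and 0 to 1 higher at p under 0.05, 3 to 7 separate pairs lower and 2 to 4 higher, and a median between -0.082 and -0.018. The 2 lower came without OVX or OVX + E2 replicate 3 and the 5 without OVX + E2 replicate 1. The 7 separate pairs lower came without OVX replicate 1. It gave 16 pathway genes lower (without OVX + E2 replicate 3) to 27, 1 to 3 higher and 0 to 2 at 0.001 (Mapkap1 and 1 more without OVX replicate 2, Ppp2r1a without OVX + E2 replicate 2), and 2 to 5 outputs lower and 0 to 1 higher. Differences crossed 0 in Mtor 1417592_at (-0.068 to 0.044), 1436267_a_at (-0.028 to 0.01) and 1446185_at (-0.013 to 0.069), Rptor 1430784_a_at (-0.019 to 0.051), Rictor 1429810_at (-0.089 to 0.062), Akt1 1425711_a_at (-0.372 to 0.084), 1440950_at (-0.002 to 0.095) and 1442759_at (-0.045 to 0.055), Akt2 1421324_a_at (-0.329 to 0.041), Tsc1 1455252_at (-0.017 to 0.023), and Eif4ebp1 1417562_at (-0.088 to 0.02), 1417563_at (-0.036 to 0.048) and 1434976_x_at (-0.106 to 0.039).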
